A study of Mus musculus with 6 samples.

Results

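The 9 genes described here, Hmgcs1, Mvd, Idi1, Fdps, Fdft1, Sqle, Lss, Cyp51 and Dhcr7, encode enzymes that build cholesterol. They were taken as the rows of the deposited count table whose gene symbol equals a listed name, which gave 9 of 50763 genes. Each is a single row, and all 9 passed the filter on low counts. The K68R libraries came from mouse embryonic fibroblasts (connective tissue cells that attach and divide when a dissociated embryo is plated), taken on day E13.5 from a CRISPR knock-in line in which an arginine replaces a lysine of SOD2, the superoxide dismutase of the mitochondrial matrix. The WT libraries came from fibroblasts of unmodified embryos of the same age, and both genotypes were on the C57BL/6J background and were kept in culture only for a short time. There were 3 libraries of poly(A) RNA per genotype, and the labels do not say how many embryos, litters or derivations stand behind them.

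Cells make sterols from acetyl-CoA. The early enzymes join acetyl units into mevalonate and convert mevalonate to isopentenyl diphosphate, the isoprene unit that is then linked into farnesyl diphosphate. Farnesyl diphosphate is a branch point, used for squalene on the way to sterols and also for dolichol, ubiquinone and the lipid anchors of proteins. The late enzymes close squalene into the ring system of lanosterol and trim it to cholesterol. Most of these genes are targets of SREBP2, a transcription factor held in the endoplasmic reticulum by SCAP and the INSIG proteins and released by cleavage when membrane sterol runs low. SREBP binds sterol regulatory elements near the start of its targets, usually beside sites for NF-Y, which reads the CCAAT box, and Sp1, which reads GC boxes.

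Promoter letters of 4 of the enzymes are given here because these genes bracket the response described below, with Hmgcs1, Idi1 and Cyp51 showing the 3 lowest log2 fold changes and Mvd the highest in the edgeR fit without offsets for length or GC content. Each run is the 250 bases before the annotated start, read 5′ to 3′ on the strand of the gene, from the RefSeq promoter table of build GRCm38.p6. Capitals mark CCAAT boxes on either strand, and in Hmgcs1 also the sterol regulatory element core. The Hmgcs1 window is chr13:119690101-119690350 (plus strand), the Mvd window chr8:122443423-122443672 (minus strand), the Idi1 window chr13:8885356-8885605 (plus strand) and the Cyp51 window chr5:4104698-4104947 (minus strand).
Hmgcs1: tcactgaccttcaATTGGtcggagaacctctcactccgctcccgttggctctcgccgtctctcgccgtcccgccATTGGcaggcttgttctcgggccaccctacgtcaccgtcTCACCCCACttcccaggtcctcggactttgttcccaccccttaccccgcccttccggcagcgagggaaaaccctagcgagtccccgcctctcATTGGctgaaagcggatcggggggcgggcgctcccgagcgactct
Mvd: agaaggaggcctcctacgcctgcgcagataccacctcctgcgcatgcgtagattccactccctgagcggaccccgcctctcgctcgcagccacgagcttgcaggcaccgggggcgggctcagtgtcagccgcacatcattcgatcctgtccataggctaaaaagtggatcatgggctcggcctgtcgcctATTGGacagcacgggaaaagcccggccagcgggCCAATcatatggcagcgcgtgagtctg
Idi1: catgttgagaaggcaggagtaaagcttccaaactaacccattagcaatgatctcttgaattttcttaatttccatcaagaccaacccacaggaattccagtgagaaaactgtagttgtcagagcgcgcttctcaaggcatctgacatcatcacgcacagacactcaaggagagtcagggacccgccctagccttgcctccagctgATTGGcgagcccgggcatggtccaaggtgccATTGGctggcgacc
Cyp51: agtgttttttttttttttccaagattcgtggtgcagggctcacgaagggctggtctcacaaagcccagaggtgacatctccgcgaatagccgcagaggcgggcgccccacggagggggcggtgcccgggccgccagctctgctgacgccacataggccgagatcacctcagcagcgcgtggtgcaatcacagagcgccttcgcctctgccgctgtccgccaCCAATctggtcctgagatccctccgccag

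The promoter table held windows for 6 of the 9 genes, those shown and Lss and Dhcr7, with 3 windows for Dhcr7 and 8 in all. On both strands, 4 motifs were searched, and no match overlapped another in the 4 windows shown. The CCAAT box (letters CCAAT) was found in all 6 genes, against 37.5% of the 27025 genes in the table. By window, it was found in 6 of 8, against 33.8% of 32851 windows, and Dhcr7 had it in only 1 of its 3 windows. The GC box (GGGCGG) was also found in all 6 genes, against 35.4% of genes. The sterol regulatory element core (TCACNCCAC) was found only in Hmgcs1, where it starts at position -137 counted back from the start site, and it occurs in 1.22% of genes in the table. The E-box (CACGTG) was found in 1 of the 6, Dhcr7, against 6.86% of genes. Among 13 other enzymes of the pathway, 11 had a window, with the CCAAT box in 9, the GC box in 10 and the sterol element core in 0. A match of letters is not a measured binding site, and a missing match says only that those letters are not in the window.

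Total counts of read pairs ran from 26200088 to 31738219 in K68R libraries and from 30856781 to 40691447 in WT libraries. Levels are in CPM, the counts of a gene scaled by the normalized size of its library, and a gene was called when its adjusted p was under 0.05 (edgeR quasi-likelihood test, Benjamini-Hochberg over the 16730 genes tested). Libraries of a genotype lay close together, at a common biological variation of 2.19% (edgeR), and 13613 genes (81.4%) were called. Sod2, whose exon counts do not read the knock-in codon, was at 48.9, 45.6 and 47.2 CPM in K68R libraries and at 71.8, 68.9 and 69.2 CPM in WT libraries, which did not overlap. Its log2 fold change was -0.57 (SE 0.0363, adjusted p = 2.96e-23, edgeR). Fibroblast markers were found in both genotypes at levels that ranged widely, from 6.83 CPM in K68R, against 30.1 CPM in WT, for Lum to 4983 CPM in K68R, against 4905 CPM in WT, for Vim and 7154 CPM in K68R, against 387 CPM in WT, for Fn1, with 5 of 10 higher, 4 lower and Vim not called, and a summed level of 17966 to 18018 CPM in K68R against 7551 to 7662 CPM in WT. The 6 skeletal muscle markers summed to 182 to 185 CPM in K68R and to 41.1 to 43.5 CPM in WT, and all 6 were called higher. Of the 8 adipocyte markers 7 were tested and all 7 were lower, with a sum of 14.3 to 15.4 CPM in K68R against 111 to 117 CPM in WT, and Plin1 had 0 counts in every K68R library. Macrophage markers summed to 138 to 145 CPM in K68R and 154 to 156 CPM in WT, a sum held mostly by Lyz2 at 82.7 CPM in K68R, against 100.4 CPM in WT, while 3 of the 8 were called higher and 2 lower, with a median log2 fold change of 0.049. Hepatic markers summed to at most 0.162 CPM in K68R and 1.52 CPM in WT, with Serpina1a at 0 in all libraries. The summed level was 91.0 to 92.9 CPM in K68R against 21.2 to 23.1 CPM in WT for 4 endothelial markers, of which Kdr alone was at 90.7 CPM in K68R, against 20.4 CPM in WT, and was called higher, while Pecam1 and Cdh5 were not called and Tie1 was not tested. It was 18.3 to 20.03 CPM in K68R against 36.1 to 37.02 CPM in WT for 4 epithelial markers, all 4 called lower, and 23.3 to 24.3 CPM in K68R against 9.96 to 12.1 CPM in WT for 4 steroidogenic markers, of which 3 were called higher and Hsd3b1 lower, at a log2 fold change of -3.80. It was 0.288 to 0.486 CPM in K68R against 0.655 to 0.927 CPM in WT for 4 erythroid markers. The part of these differences in the enzyme levels was not tested. In RNA from whole cultures, fewer cells of a type and less RNA per cell cannot be told apart.

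The 9 enzymes were compared between K68R and WT to see how the mRNA of sterol synthesis differs in the knock-in fibroblasts. Of the 9, 8 were lower in K68R, by 1.17-fold for Dhcr7 to 1.55-fold for Idi1, and Mvd was 1.30-fold higher. With offsets for the length and GC content of the longest coding transcript, the Mvd call was lost. Its log2 fold change was then -0.01 (adjusted p = 0.85, edgeR). Summed over the 9 genes, the level was 954, 946 and 933 CPM in K68R libraries, against 1318, 1328 and 1320 CPM in WT libraries. The background for these counts is broad, since 40.5% of all genes tested were called lower and 40.8% higher. The median log2 fold change of the 9 was -0.449, beside -0.007 over all genes tested. Each decrease was modest. Against a bound of 1.5-fold in place of no change, edgeR called 0 of the 9 in either direction, with 2 of them lower at an unadjusted p under 0.05, while it called 14.9% of all genes lower and 26.1% higher. Of the 9, 0 were both called and at least 2-fold lower, against 7.57% of all genes.

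**Figure D1:**
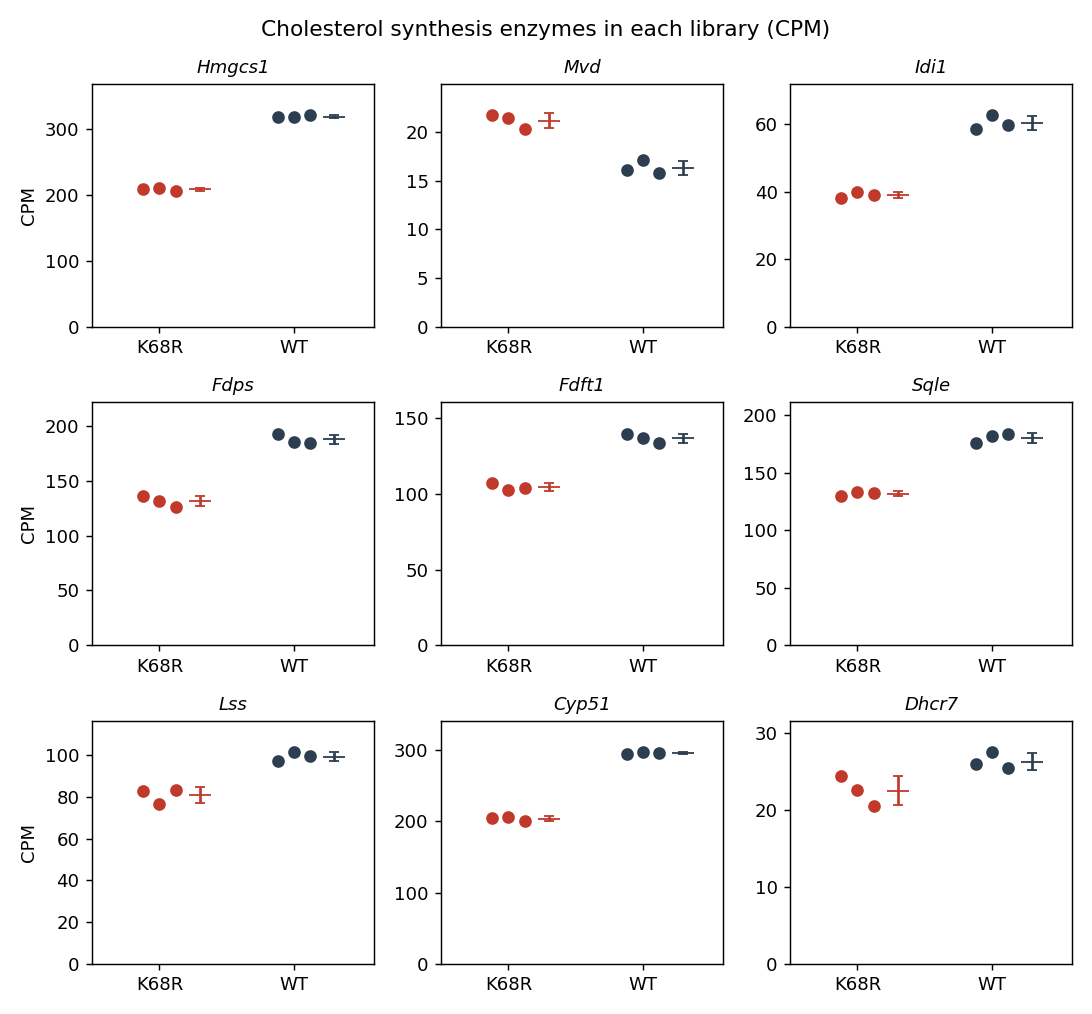
Level of the 9 enzymes in each library, in CPM on axes that start at 0, with K68R libraries (red) left of WT libraries (dark); points are libraries and the bar beside them is the mean ± SD (n = 3). The K68R points lie below all WT points for 8 genes and above them for Mvd. The Mvd difference was not called with either kind of offset that includes GC content.

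The upper pathway starts with Hmgcs1, the cytosolic synthase that makes HMG-CoA (chr13:120151887-120169796, plus strand, build mm39, as for all gene positions here). Its level was 208, 210 and 207 CPM in K68R libraries, against 318, 318 and 321 CPM in WT libraries. The WT libraries were all higher and the libraries of a genotype nearly coincided, with a coefficient of variation of 0.904% in K68R and 0.530% in WT, beside a median of 5.03% and 5.02% over all genes tested. The means were 209 ± 1.89 CPM in K68R, against 319 ± 1.69 CPM in WT (SD, n = 3), a log2 fold change of -0.61 (SE 0.0213, adjusted p = 7.1e-38, edgeR). That placed it at percentile 19.5 of the log2 fold changes of all genes tested, counted from the lowest.

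Mvd, the decarboxylase that turns mevalonate diphosphate into isopentenyl diphosphate (chr8:123160335-123170161, minus strand), was the exception. It had 561, 671 and 626 counts in K68R libraries and 663, 537 and 529 in WT libraries, which is 21.7, 21.5 and 20.3 CPM in K68R against 16.1, 17.2 and 15.8 CPM in WT. Every K68R library was above every WT library. The means were 21.2 ± 0.777 CPM in K68R, against 16.3 ± 0.732 CPM in WT (SD, n = 3), a log2 fold change of 0.37 (SE 0.0611, adjusted p = 1.08e-07, edgeR). This call did not hold with offsets for both exon length and GC (0.009, adjusted p = 0.899) or with those of the longest coding transcript (-0.013, adjusted p = 0.85). Predicted genes on the other strand, Gm51557 and Gm53466, share 36.2% of its exonic bases, and counting without strand cannot divide those reads.

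Idi1, the isomerase that converts isopentenyl diphosphate to its allylic form (chr13:8935642-8942432, plus strand), had the lowest log2 fold change of the 9 in the fit without offsets, though not with them. It was at 38.1, 39.9 and 38.9 CPM in K68R libraries and at 58.5, 62.7 and 59.9 CPM in WT libraries. Again the genotypes did not overlap. The means were 39.0 ± 0.911 CPM in K68R, against 60.4 ± 2.11 CPM in WT (SD, n = 3), a log2 fold change of -0.63 (SE 0.0389, adjusted p = 6.8e-24, edgeR). The table lists 5 Idi1 pseudogenes, which held 290 counts in all in K68R and 436 in WT, so reads that fit several copies may be missing from Idi1 itself.

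Fdps makes farnesyl diphosphate and is the target of the nitrogen bisphosphonates used against bone loss (chr3:89000895-89009274, minus strand). Its level was 136, 132 and 126 CPM in K68R libraries, against 193, 186 and 185 CPM in WT libraries, with every K68R value below every WT value. The means were 132 ± 4.96 CPM in K68R, against 188 ± 4.42 CPM in WT (SD, n = 3), a log2 fold change of -0.52 (SE 0.0257, adjusted p = 1.61e-28, edgeR).

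Fdft1, or squalene synthase, joins a pair of farnesyl diphosphates and is the first step that leads to sterols alone (chr14:63382599-63419136, minus strand). Its 107, 102 and 104 CPM in K68R libraries lay below the 140, 137 and 134 CPM of the WT libraries. The means were 105 ± 2.42 CPM in K68R, against 137 ± 3.09 CPM in WT (SD, n = 3), a log2 fold change of -0.39 (SE 0.0274, adjusted p = 4.54e-21, edgeR). Of its exonic bases, 7.43% overlap Ctsb on the other strand.

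Sqle, the oxygenase that puts the epoxide on squalene and a flux-limiting step of the lower pathway (chr15:59186941-59203042, plus strand), was at 129, 133 and 132 CPM in K68R libraries and at 175, 181 and 184 CPM in WT libraries. The K68R libraries were all lower. The means were 132 ± 2.13 CPM in K68R, against 180 ± 4.35 CPM in WT (SD, n = 3), a log2 fold change of -0.45 (SE 0.0250, adjusted p = 2.54e-26, edgeR).

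Lss, the cyclase that folds the epoxide into lanosterol (chr10:76367303-76392973, plus strand), was at 82.8, 76.7 and 83.1 CPM in K68R libraries, against 97.0, 101 and 99.3 CPM in WT libraries. No K68R library reached any WT library. The means were 80.9 ± 3.61 CPM in K68R, against 99.2 ± 2.16 CPM in WT (SD, n = 3), a log2 fold change of -0.29 (SE 0.0315, adjusted p = 2.64e-13, edgeR). With offsets its log2 fold change was larger in size, at -1.09 for exon length and GC content together and at -0.999 for the longest coding transcript. 4930483K19Rik, on the other strand, shares 5.48% of the exonic bases of Lss.

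Cyp51, the cytochrome P450 that takes a methyl group off lanosterol (chr5:4130674-4154697, minus strand), was at 206, 207 and 200 CPM in K68R libraries and at 294, 297 and 296 CPM in WT libraries. Its WT libraries were nearly identical and all above the K68R libraries. The means were 204 ± 3.59 CPM in K68R, against 296 ± 1.48 CPM in WT (SD, n = 3), a log2 fold change of -0.54 (SE 0.0217, adjusted p = 6.2e-34, edgeR).

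Dhcr7, the reductase that yields cholesterol from its dehydro precursor and whose loss in humans causes Smith-Lemli-Opitz syndrome (chr7:143376827-143402147, plus strand), had the log2 fold change nearest to 0 of the 9 in the fit without offsets, though not with those for exon length and GC content, which gave -0.46. It was at 24.4, 22.6 and 20.6 CPM in K68R libraries and at 26.0, 27.5 and 25.5 CPM in WT libraries. The highest K68R library came close to the lowest WT library without reaching it. The means were 22.5 ± 1.91 CPM in K68R, against 26.3 ± 1.07 CPM in WT (SD, n = 3), a log2 fold change of -0.23 (SE 0.0560, adjusted p = 1.96e-04, edgeR). Leaving out each library in turn moved its log2 fold change between -0.29 and -0.16, with an adjusted p of at most 0.0115 (edgeR).

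In each of the 9 genes the K68R libraries were set apart from the WT libraries with no overlap, as in 82.3% of all genes tested. For the 8 lower ones the matching share is 41.0% of genes, those with all K68R libraries below all WT libraries. A two-sided exact permutation test over the 20 assignments of the 6 libraries gave p = 0.1 for each of the 9, which is the smallest value that 3 against 3 libraries allow.

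Without offsets the decreases were not equal in size. In order of log2 fold change from the lowest, the genes ran Idi1, Hmgcs1, Cyp51, Fdps, Sqle, Fdft1, Lss, Dhcr7 and Mvd. Of the 8 neighbouring pairs in that order, 3 had a 95% interval of the difference that left out 0. Cyp51 exceeded Hmgcs1 by 0.08 on the log2 scale (interval 0.02 to 0.14), Lss exceeded Fdft1 by 0.09 (0.01 to 0.18), and Mvd exceeded Dhcr7 by 0.60 (0.44 to 0.76). The other neighbours did not differ beyond their error, for example Idi1 and Hmgcs1, with a difference of 0.01 (-0.07 to 0.10). This order rests on the fit without offsets. With offsets for both exon length and GC, Hmgcs1 was at -0.37 and Dhcr7 at -0.46, so that their order turned, and with those of the longest coding transcript Lss, at -0.999, was below Fdft1, at -0.64. The intervals come from the standard errors of both genes and treat the genes as independent.

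Levels between genes were compared per exon length, as RPKM, the CPM per kilobase of exon. In K68R the order was Fdps at 90.1, Hmgcs1 at 49.5, Sqle at 47.9, Cyp51 at 46.9, Idi1 at 13.6, Lss at 11.6, Mvd at 11.4, Fdft1 at 10.04 and Dhcr7 at 6.02 RPKM. In WT it was Fdps at 129, Hmgcs1 at 75.7, Cyp51 at 67.98, Sqle at 65.5, Idi1 at 21.1, Lss at 14.3, Fdft1 at 13.1, Mvd at 8.77 and Dhcr7 at 7.03 RPKM. Fdps, Hmgcs1, Sqle and Cyp51 thus formed an upper tier in both genotypes, well clear of Idi1. Libraries of neighbours overlapped only in K68R, between Sqle and Cyp51 and between Lss and Mvd. Mvd passed Fdft1 in K68R and stood below it in WT. The share of Mvd in the summed RPKM of the 9 genes was 4.01%, 4.00% and 3.86% in K68R libraries, against 2.15%, 2.29% and 2.11% in WT libraries, while that of Hmgcs1 was 17.003%, 17.3% and 17.4% in K68R against 18.8%, 18.7% and 19.0% in WT. The exonic bases of Fdft1 (10420) and Lss (6956) cover every annotated transcript and run past their longest coding transcripts of 3698 and 4667 bases. Per kilobase of that transcript, the level of Fdft1 was 28.3 CPM in K68R, against 36.97 CPM in WT, and that of Lss 17.3 CPM in K68R, against 21.3 CPM in WT, so the place of these 2 genes in the order rests on the length used.

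**Figure D2:**
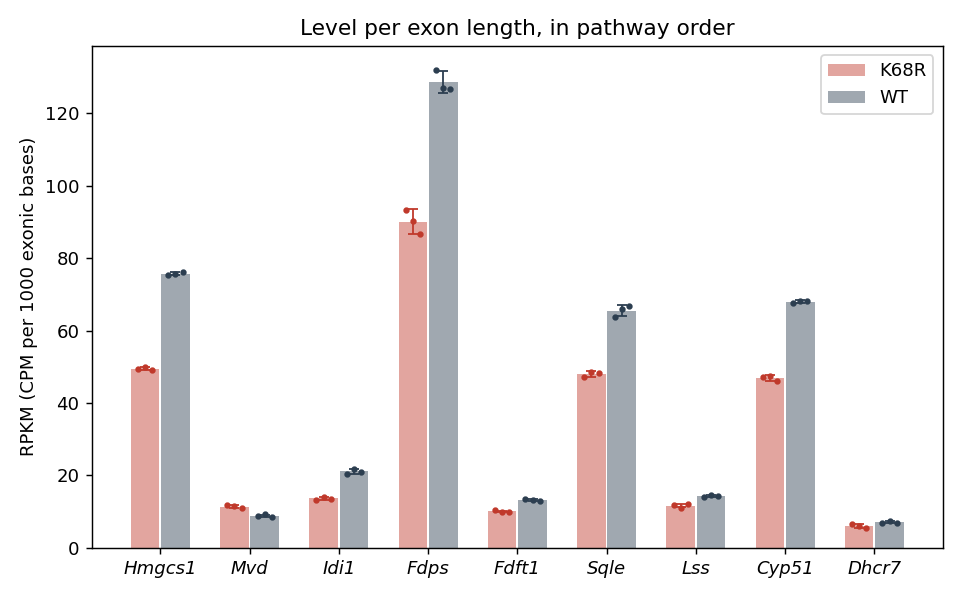
Level of the 9 enzymes per exon length, in RPKM, from the early enzyme Hmgcs1 to the late enzyme Dhcr7; bars are means with the SD (n = 3), points are libraries, and K68R (red) stands left of WT (grey). Fdps is highest in both genotypes, at 90.1 RPKM in K68R and 129 RPKM in WT.

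The rest of the pathway was read from a list of 13 further enzymes, of which 10 were lower in K68R, 1 was higher, and Mvk and Tm7sf2 were not called, with a median log2 fold change of -0.314. With the 9 this makes 18 of 22 enzymes lower and 2 higher, beside the 40.5% and 40.8% of all genes. With offsets for both exon length and GC, 17 were lower and 3 higher, beside 42.9% and 33.4% of the genes in that fit. Pmvk, the kinase just before Mvd, fell by 0.65 on the log2 scale, to 16.9 ± 0.331 CPM in K68R against 26.5 ± 1.07 CPM in WT (SD, n = 3; adjusted p = 1.35e-16, edgeR). Mvk, the kinase before Pmvk, was at 44.8 ± 1.30 CPM in K68R, against 42.5 ± 1.06 CPM in WT (SD, n = 3; adjusted p = 0.0666, edgeR). Of the 3 enzymes that carry mevalonate to isopentenyl diphosphate, Pmvk was thus lower, Mvk was not called and Mvd was higher. With offsets for both exon length and GC, Mvk was called lower, at -0.20 (adjusted p = 2.29e-05, edgeR), and Mvd was not called, at 0.009.

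Ebp, Lbr and Erg28, which act after Cyp51, had lower log2 fold changes than any of the 9 in the fit without offsets. Ebp, the sterol isomerase, fell to 19.2 ± 0.693 CPM in K68R against 39.9 ± 2.32 CPM in WT, a log2 fold change of -1.05 (SD, n = 3; adjusted p = 1.77e-29, edgeR). Lbr, the lamin B receptor that is also a sterol reductase, fell to 43.2 ± 1.28 CPM in K68R against 88.4 ± 1.90 CPM in WT, a log2 fold change of -1.03 (SD, n = 3; adjusted p = 2.86e-38, edgeR). Tm7sf2, which carries the same reductase activity as Lbr, was at 7.67 ± 0.427 CPM in K68R, against 6.85 ± 0.0870 CPM in WT (SD, n = 3; adjusted p = 0.109, edgeR). Tm7sf2 was called higher with offsets for both exon length and GC, at 0.31 (adjusted p = 0.0027, edgeR). It was also called higher with those of the longest coding transcript, at 0.25 (adjusted p = 0.015, edgeR). Erg28, a scaffold of the demethylation steps in yeast, fell by 0.92 on the log2 scale (adjusted p = 3.08e-28, edgeR), and 12.8% of its exonic bases overlap Ttll5. With offsets for both exon length and GC, the log2 fold change was -0.70 for Ebp, -0.95 for Lbr, -0.60 for Erg28 and -1.28 for Pmvk. Sc5d, the desaturase that makes the substrate of Dhcr7, had a log2 fold change of -0.50 (adjusted p = 4.61e-26, edgeR). Msmo1 and Nsdhl, which act on the sterol after Cyp51, were lower at -0.21 and -0.20 and turned to 0.19 and 0.22 with offsets for both exon length and GC.

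**Figure D3:**
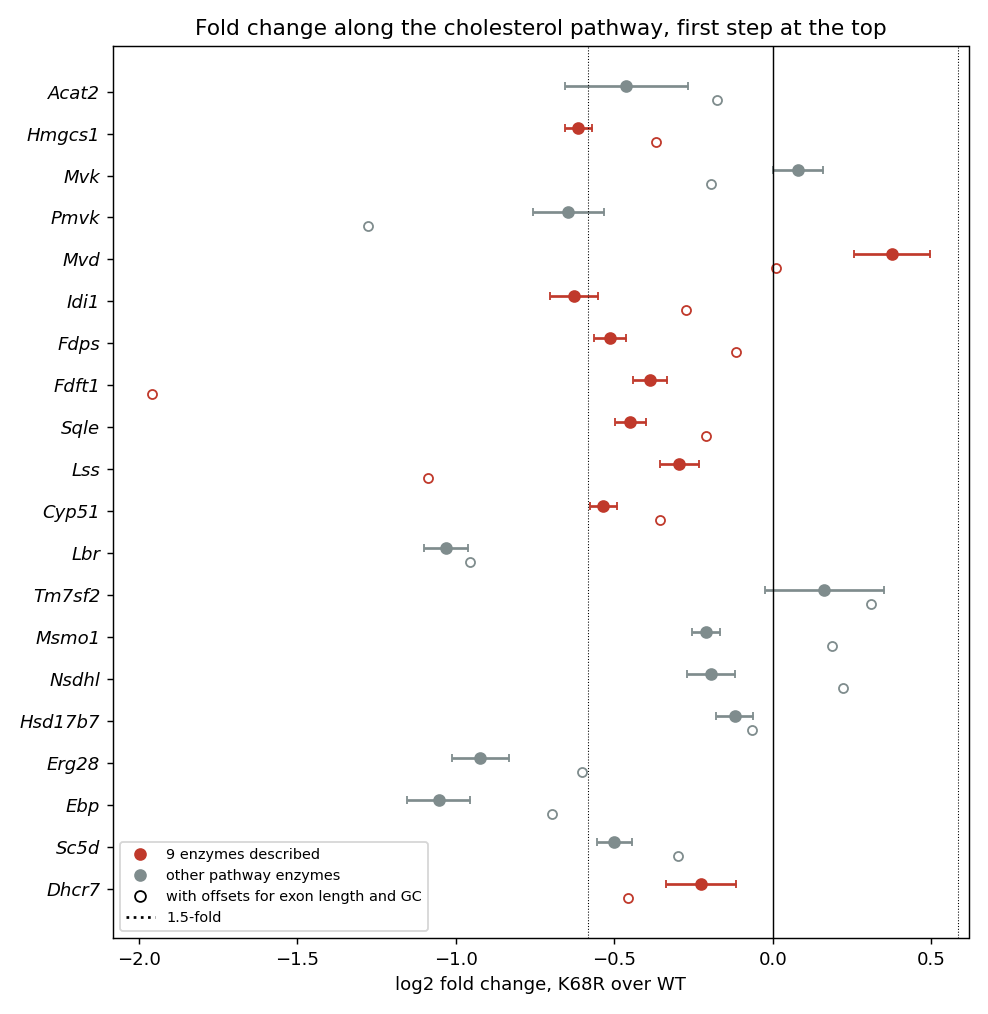
Log2 fold change of K68R over WT for 20 enzymes in pathway order from the top, with the 9 described in red and 11 others in grey; filled points are the edgeR estimates with 95% intervals, open points the values with offsets for both exon length and GC, and dotted lines mark 1.5-fold. Filled points lie left of 0 for 17 called enzymes, and Mvd is called to the right, where the offsets bring it to 0.009.

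At the farnesyl diphosphate branch, 8 of 11 enzymes were lower and 0 higher by edgeR, beside 40.5% and 40.8% of all genes. The number higher was likewise 0 by DESeq2 and limma-voom and at an unadjusted p under 0.05. The median log2 fold change of the 11 was -0.281. Pdss1, which builds the ubiquinone side chain, was at 8.79, 11.5 and 9.33 CPM in K68R libraries and 24.5, 26.0 and 25.7 CPM in WT libraries, with no overlap and a log2 fold change of -1.35 (adjusted p = 2.42e-27, edgeR). Rabggtb, a subunit of the transferase that anchors Rab proteins, fell by 0.73 on the log2 scale (adjusted p = 1.31e-30, edgeR), and its partner subunit Rabggta had overlapping libraries, at 18.4, 17.6 and 18.3 CPM in K68R, against 17.2, 18.9 and 17.5 CPM in WT (adjusted p = 0.759, edgeR). Ggps1, which makes geranylgeranyl diphosphate, was at 38.3 ± 1.42 CPM in K68R, against 39.7 ± 1.98 CPM in WT (SD, n = 3), with overlapping libraries (adjusted p = 0.299, edgeR). With offsets for both exon length and GC, 8 of the 11 were lower and 2, Fnta and Nus1, were higher. Over all genes in that fit, 42.9% were lower and 33.4% higher.

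Of the genes that sense sterol, 5 of 10 were higher and 5 lower, beside 40.8% and 40.5% of all genes, with a median log2 fold change of -0.024. With offsets for both exon length and GC, 3 were higher, 2 lower and 5 not called, beside 33.4% higher and 42.9% lower in that fit. Srebf2, which encodes SREBP2, was at 207, 208 and 215 CPM in K68R libraries and 49.1, 51.7 and 48.9 CPM in WT libraries. Its log2 fold change of 2.08 (adjusted p = 3.76e-62, edgeR) was 0.17 with offsets for both exon length and GC and turned to -0.55 with those of the longest coding transcript. Scap, its escort, was at 78.3 ± 3.03 CPM in K68R, against 21.0 ± 0.921 CPM in WT (SD, n = 3), a log2 fold change of 1.90 that was 0.73 with the first offsets and turned to -0.44 with the second. Srebf1, which encodes the relative of SREBP2 that acts mainly on fatty acid genes, was at 90.9 ± 3.84 CPM in K68R, against 15.2 ± 0.0742 CPM in WT (SD, n = 3), a log2 fold change of 2.58 that was 0.45 and 0.43 with the 2 kinds of offset. Insig1, an SREBP target that retains SCAP, was at 97.6, 104 and 98.4 CPM in K68R libraries and 132, 132 and 129 CPM in WT libraries. Its log2 fold change of -0.39 (adjusted p = 1.29e-20, edgeR) was -0.02 with the first offsets (adjusted p = 0.599, edgeR). With the second it was -0.14 and still called lower (adjusted p = 7.58e-06, edgeR).

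In the list of sterol uptake, storage and export, 5 of 14 genes were higher and 7 lower, beside 40.8% and 40.5% of all genes. The median log2 fold change of the 14 was -0.06. In the fit with offsets for both exon length and GC, 5 were higher and 9 lower, at a median of -0.327. The shares of all genes in that fit were 33.4% higher and 42.9% lower. Stard4, a carrier of sterol between membranes, was at 46.1 ± 0.931 CPM in K68R, against 84.3 ± 2.44 CPM in WT (SD, n = 3), a log2 fold change of -0.87 (adjusted p = 5.52e-34, edgeR) that stayed at -0.80 and -0.77 with the 2 kinds of offset. Ch25h, which makes an oxysterol that blocks SREBP processing, had a log2 fold change of -1.12 (adjusted p = 1e-26, edgeR). Of 6 proliferation genes, 5 were lower and Mki67 was higher, with a summed level of 604 to 621 CPM in K68R against 1205 to 1222 CPM in WT, and the part of proliferation in the enzyme levels was not tested.

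Fold changes over the whole table moved with the length and GC content of the transcripts, and those of the 9 enzymes moved with GC content. Across the 15594 genes with a GC value, the Spearman correlation of the log2 fold change with GC content was 0.36 and with exonic bases 0.38, and a smooth surface over both described 36.4% of the variance. Across the 9 enzymes, which share libraries and so are not independent, it was 0.82 with GC content and -0.02 with exonic bases. Across the 22 enzymes of the pathway, these 9 included, it was 0.37 with GC content and -0.03 with exonic bases. Idi1, at 40.6% GC the poorest in G and C of the 9, had the lowest log2 fold change without offsets, and Mvd, at 59.2% the richest, had the highest. With offsets for this surface, 8 of the 9 were lower, 0 were higher (0 also at an unadjusted p under 0.05, edgeR) and Mvd was not called, beside 42.9% lower and 33.4% higher over the genes tested in that fit. The median log2 fold change of the 9 was then -0.357, beside -0.074 over those genes. The size of single changes moved, to -0.12 for Fdps, -0.21 for Sqle, -0.28 for Idi1, -0.36 for Cyp51, -0.37 for Hmgcs1 and -0.46 for Dhcr7, and to -1.09 for Lss and -1.959 for Fdft1, the 2 that were then at least 2-fold lower, against 9.95% of the genes in that fit. The values of Lss and Fdft1 carry the long exonic lengths given above, and with the longest coding transcript in their place they were -0.999 and -0.64. A cause of the trend with length and GC content was not tested.

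**Figure D4:**
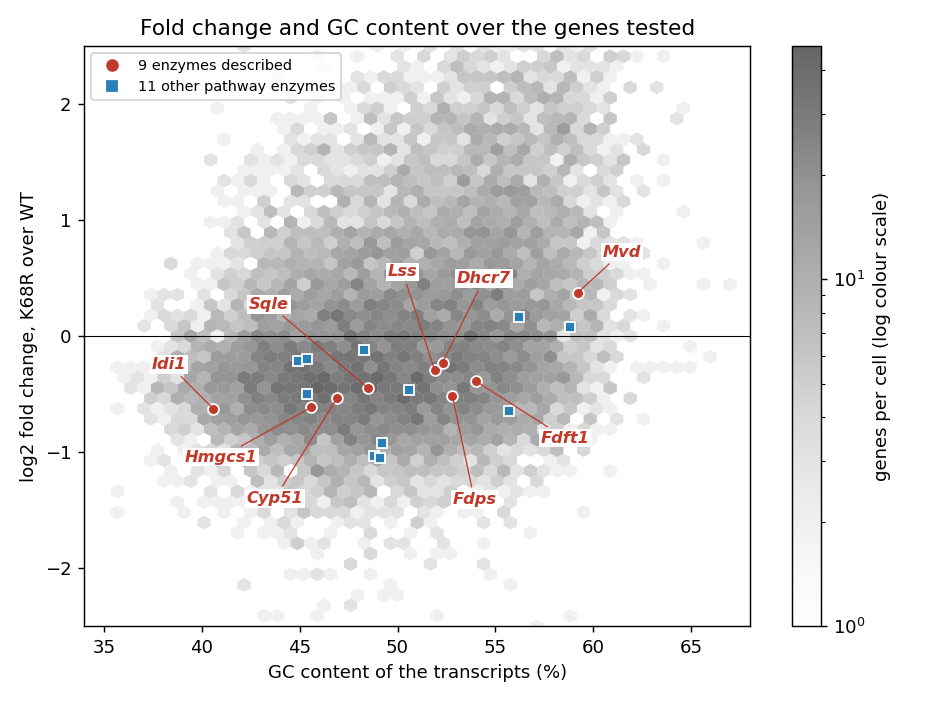
Log2 fold change of K68R over WT against the GC content of the transcripts in percent, with genes as grey cells shaded by number on a log colour scale, the 9 enzymes in red and 11 other pathway enzymes in blue; 1201 of 15594 genes lie outside the axes. From Idi1 at 40.6% GC to Mvd at 59.2% the 9 run upward with GC content, as the grey field does. The Mvd difference was not called with either kind of offset that includes GC content.

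The genes whose pattern over the 6 libraries lay nearest to the mean of the 9 enzymes, by root mean square distance of centred log2 CPM, were Mdh2 (distance 0.00872), Cmtm4 (0.0120) and Rpn2 (0.0131). Their log2 fold changes were -0.36, -0.36 and -0.35. Among the enzymes themselves Fdft1 lay nearest to that mean, at 0.0291, and Mvd farthest, at 0.370.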

How the data were processed

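RNA of 6 fibroblast libraries, 3 K68R and 3 WT, was purified by Triazol and a Qiagen column and made into stranded poly(A) libraries, per the labels' protocols. The deposited table holds the authors' raw counts, 1 column per library, beside the exonic bases of each gene. The submitters' processing notes name HISAT2 2.2.1, featureCounts 2.0.6, bcl2fastq and SAMtools, and build mm39. Per the file headers, read pairs were counted over RefSeq exons with no strand option and no multi-mapping option, so reads shared by overlapping genes or near-identical copies are uncertain. Of read trimming, nothing was given in the sources used here.

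Genotype was taken from each title. The titles call them biological replicates, but nothing says that they came from separate embryos or cultures, so p-values cover only the spread of these libraries, which may be technical. Pairs of libraries of a genotype differed by a chi-square per gene of 1.85 to 2.29, above sampling noise, and all 6 were kept.

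The whole table was fitted in R 4.3.3 with edgeR 4.0.16 (filterByExpr, TMM, robust quasi-likelihood F test, genotype only), with Benjamini-Hochberg adjustment over 16730 genes. Alternatives used DESeq2 1.42.0, limma-voom (limma 3.58.1), other scalings and filters, a replicate block, a 1.5-fold bound, offsets from mgcv 1.9.3 smooths over exon length and GC content, and each library left out. GC content is the mean over GENCODE M21 transcripts joined by symbol, found for 93.2% of genes tested and for all 9 enzymes. The fits were checked on simulated counts. Counting error bounds every level, and 3 counts equal 0.0737 to 0.114 CPM per library.

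All 9 enzymes are named, other genes come from fixed pathway and marker lists, and nearest patterns are the 3 unlisted genes with an established symbol at the smallest distance. The members and lists were chosen with earlier results of these data known. Some listed genes are not reported here by name.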

Additional observations from a re-analysis of the deposited data

How the results depend on the processing

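Over 18 alternatives, all 9 enzymes kept their direction and their call in 15, which covers the scalings, the filters, DESeq2, limma-voom, offsets for exon length alone, the replicate block, an adjusted p under 0.01 and each library left out. Upper quartile scaling moved the median log2 fold change of all genes from -0.007 to -0.122 and that of the 9 from -0.449 to -0.564, testing with no filter moved that of all genes to 0.151, and offsets for exon length alone moved it to -0.206. Against a 1.5-fold bound no enzyme was called (edgeR), with 0 lower and 0 higher, at log2 fold changes of -0.61 for Hmgcs1 (adjusted p = 0.0656), -0.63 for Idi1 (adjusted p = 0.105), 0.37 for Mvd, -0.52 for Fdps, -0.39 for Fdft1, -0.45 for Sqle, -0.29 for Lss, -0.54 for Cyp51 and -0.23 for Dhcr7, and Sod2 at -0.57 was lost too (adjusted p = 0.692). That bound left 3 of the other sterol enzymes lower and 1 higher, and 2 of the farnesyl branch lower and 0 higher. It left 3 of the sensing genes higher and 0 lower, and 4 of the uptake genes higher and 3 lower. In all, 2490 genes were lower and 4365 higher. With offsets for both exon length and GC 0 of the 9 were higher, Mvd was at 0.009 (adjusted p = 0.899), 3 other sterol enzymes and 2 genes of the farnesyl branch were higher, and the sensing genes had 3 higher and 2 lower. With offsets from the longest coding transcript, chosen after seeing the data, 0 of the 9 were higher. Mvd was at -0.013 and not called (adjusted p = 0.85, edgeR). Higher in that fit were 3 other sterol enzymes, 2 of the farnesyl branch and 3 sensing genes. Of the 22 enzymes, 16 were lower. The share of all genes called in that fit is not given here. Its median log2 fold change was -0.276 for the 9, beside -0.05 over the 13523 genes tested. Offsets for exon length alone left 3 other sterol enzymes and 3 sensing genes higher. DESeq2 size factors and a filter of 1 CPM in 3 libraries each gave 2 other sterol enzymes higher, with Mvk added. Leaving out single libraries gave 1 to 2 of the other sterol enzymes higher and 0 to 1 of the farnesyl branch, the upper values without K68R replicate 2, when Mvk and Fntb passed. Apart from what an alternative's own construction sets, the cause was not tested.

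The deviations of same-numbered libraries correlated at 0.035, 0.003 and 0.071, and those of unlike numbers at -0.069 to 0.032. K68R replicate 2 correlated better with WT replicate 1 than with its own number, while K68R replicates 1 and 3 correlated best with their own. Such small values cannot tell whether a number stands for a shared embryo or day. With the replicate number as a block, 8 of the 9 enzymes were lower and 1 higher, as without it, and 6763 genes were lower and 6804 higher in all. No library of a pair is known to share an embryo or a day with its number. Depth limits mainly Mvd and Dhcr7, the 2 members with the fewest counts.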
